A study of Mus musculus with 23 samples.

Results

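The aminoacyl-tRNA synthetases, the enzymes that load each transfer RNA (tRNA) with its amino acid, were examined across tumors and control B cells of the IL6Myc mouse series. Members were chosen by a rule on gene names, and the choice was made with earlier results of these data known. The rule takes every entry whose name is a letter for an amino acid followed by ARS, with A, B, 1 or 2 where present, or EPRS. The deposited table lists 37 such names. Compartments were assigned by name only: 17 ending in 2 count as mitochondrial, KARS as shared by both compartments and the other 19 as cytosolic. The 17 described here carry values and passed the filter on low counts, a level of at least 1 CPM (counts scaled to a common library size) in at least 4 libraries, as did 11633 genes in all. They are FARSA and FARSB of the cytosol and 15 mitochondrial enzymes, AARS2, CARS2, EARS2, FARS2, HARS2, IARS2, LARS2, MARS2, NARS2, PARS2, RARS2, TARS2, VARS2, WARS2 and YARS2. A further 19 names, 17 cytosolic ones, KARS and SARS2, are listed without values and were not analysed here, so GARS, EPRS and WARS have no level below. The results therefore describe the mitochondrial enzymes and the cytosolic phenylalanine enzyme, and say nothing of the cytosolic set as a whole.

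RNA was sequenced from 7 mesenteric lymph node (MLN) tumors and 7 spleen tumors of IL6Myc transgenic mice, labelled as malignant plasma cells, and from 9 control libraries of wild-type Balb/c spleen. The controls were 5 libraries of B cells kept for 16 hours with 1 µg/ml lipopolysaccharide (LPS, a bacterial product that drives B cells to divide), called activated, and 4 libraries of untreated B cells, called quiescent. Tumors with the same mouse number come from the same animal: mice 1610, 1611, 1613, 1614, 1615 and 1616 gave a pair, while 1609 is represented by its MLN tumor and 1612 by its spleen tumor. Every sample, tumors included, was enriched for B cells by magnetic negative selection, which removes cells carrying markers of other lineages. The sources used here do not state the elements that drive the transgenes, the strain of the tumor mice or any age. LPS and the time in culture cannot be told apart, and nothing says that the control libraries came from separate animals, so the p-values may in part measure technical spread.

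Mitochondria hold their own small genome, whose messages are translated inside the organelle by a separate ribosome, with tRNAs encoded in that genome and enzymes imported from the cytosol. Most amino acids thus have a cytosolic and a mitochondrial synthetase from separate genes. The mitochondrial enzymes serve only the few respiratory chain proteins made in the organelle, whereas the cytosolic enzymes serve all other protein synthesis. Plasma cells, the antibody-secreting stage of the B cell lineage, and dividing B cells both make protein at a high rate. Cytosolic synthetase genes are known targets of ATF4, a transcription factor of the amino acid response, and growth genes driven by MYC often carry the E-box sequence near their start.

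Totals of estimated counts lay between 14712392 and 21897188 in MLN tumors, 13328866 and 20091467 in spleen tumors, 20194017 and 25045814 in activated and 15529618 and 24226060 in quiescent libraries. MYC, named in the tumor genotype, was the gene checked against the labels: its RNA in tumors was above that of quiescent cells by 3.45 on the log2 scale (adjusted p = 8.68e-07). Several tumor libraries were low in plasma cell genes. The summed level of 10 plasma cell markers ran from 1269 to 28583 CPM in MLN tumors and from 865 to 24154 CPM in spleen tumors, against 1247 to 1292 CPM in activated and 1924 to 2334 CPM in quiescent cells. The summed level of 11 mature B cell markers ran from 2930 to 16515 CPM in MLN tumors and from 308 to 20510 CPM in spleen tumors, against 15686 to 17619 CPM in activated and 26949 to 29126 CPM in quiescent cells. Markers of other lineages were higher in tumors than in quiescent cells for 10 of 10 macrophage, 7 of 7 neutrophil, 8 of 8 erythroid, 9 of 9 stromal, 8 of 10 T cell and 6 of 8 NK cell genes tested (1 NK cell gene was lower). Of all genes tested, 36.8% were higher in that comparison. The macrophage sum, for example, ran from 368 to 2419 CPM in MLN tumors and from 166 to 2140 CPM in spleen tumors, against 8.77 to 20.5 CPM in activated and 14.6 to 130 CPM in quiescent cells. Markers at 0 in every library of a group were THEMIS, ELANE, KEL, COL1A2 and PDGFRA in activated and LUM in quiescent cells. The share of the other cells in the synthetase levels of tumors was not tested, and in bulk RNA fewer cells of a type and less RNA per cell cannot be told apart.

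**Figure D1:**
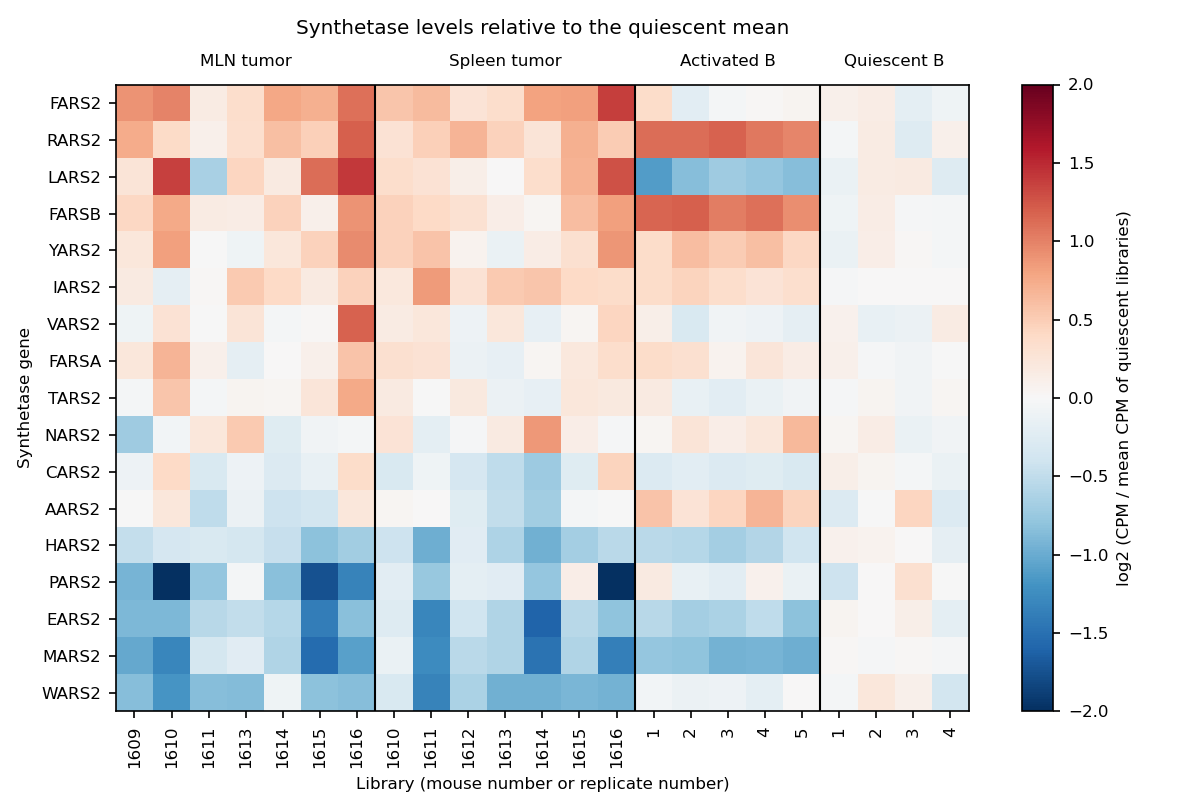
Each row is a synthetase gene and each column a library, grouped as MLN tumors, spleen tumors, activated and quiescent B cells; colour gives log2 of the library's CPM over the mean CPM of the quiescent libraries, with the scale ending at -2 and 2. RARS2 and FARSB are red in all activated libraries, while MARS2, EARS2 and HARS2 are blue in all activated libraries and all tumors.

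LARS2, the mitochondrial leucine enzyme, stood far above the other members. On the CPM scale, per library, it had a lowest value of 1371, a median of 2890 and a highest of 5726 in MLN tumors, and 2164, 2746 and 5236 in spleen tumors. The activated libraries had 993, 1195, 1311, 1265 and 1189 CPM and the quiescent ones 1959, 2420, 2448 and 1797 CPM. LARS2 alone held 68.9% to 88.6% of the counts of the 17 members in MLN tumors, 77.8% to 87.5% in spleen tumors, 55.7% to 64.8% in activated and 73.6% to 78.7% in quiescent libraries. For that reason no summed level of the family is used here. Per kilobase of its longest coding transcript, its mean level was 783 CPM per kb in spleen tumors, and FARSA came next with 52.8 CPM per kb. Which stretch of the LARS2 transcript the reads cover was not analysed here, so its level and the changes given for it may not be those of the whole LARS2 message. No other transcript of the mouse annotation shared 75 or more bases with it at 98% identity or more. Shorter or less similar stretches, and sequences outside that annotation, were not searched.

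In MLN tumors FARSA (56.6 CPM per kb), FARSB (45.0), CARS2 (25.8), TARS2 (23.7) and RARS2 (17.5) followed it, and WARS2 (3.24) and PARS2 (2.49) were lowest. In spleen tumors the lowest were PARS2 (3.49 CPM per kb) and WARS2 (3.06). In activated cells FARSB (70.0 CPM per kb) passed FARSA (56.2), and MARS2, at 3.38 CPM per kb over a transcript of 11.3 kb, was lowest. In quiescent cells FARSA (47.8 CPM per kb) was above FARSB (32.9), and neighbours at the low end, AARS2 (4.87) and PARS2 (4.85), differed by less than the spread between libraries. The spread was wider among tumors: the coefficient of variation of a member had a median of 23.3% over MLN tumors and 23.5% over spleen tumors, against 8.24% over activated and 8.40% over quiescent libraries.

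The promoters of 4 members are shown from RefSeq (mouse build GRCm38.p6, 250 bases before and 50 after the annotated start, written 5′ to 3′ on the strand of the gene). FARSB and RARS2 were the members with the largest rise in activated cells, and MARS2 and EARS2 were lower in activated cells and tumors alike. Capitals mark matches on either strand to the E-box CACGTG, the ATF4 element TGATGNAA, the NRF1 site or the ETS site CCGGAAG.
FARSB (chr1:78488848-78489147, minus strand): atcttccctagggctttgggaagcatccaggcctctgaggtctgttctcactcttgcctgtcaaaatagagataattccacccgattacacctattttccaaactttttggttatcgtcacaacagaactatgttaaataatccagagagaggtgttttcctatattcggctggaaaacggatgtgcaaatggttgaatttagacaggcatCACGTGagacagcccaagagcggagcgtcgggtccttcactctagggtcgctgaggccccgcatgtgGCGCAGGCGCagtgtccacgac
RARS2 (chr4:34614707-34615006, plus strand): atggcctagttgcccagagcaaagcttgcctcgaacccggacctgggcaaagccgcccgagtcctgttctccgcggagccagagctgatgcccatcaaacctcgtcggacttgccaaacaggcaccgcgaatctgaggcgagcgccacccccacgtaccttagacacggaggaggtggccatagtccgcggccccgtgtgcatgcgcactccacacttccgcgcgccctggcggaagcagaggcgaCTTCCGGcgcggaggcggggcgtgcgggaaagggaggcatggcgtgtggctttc
MARS2 (chr1:55236927-55237226, plus strand): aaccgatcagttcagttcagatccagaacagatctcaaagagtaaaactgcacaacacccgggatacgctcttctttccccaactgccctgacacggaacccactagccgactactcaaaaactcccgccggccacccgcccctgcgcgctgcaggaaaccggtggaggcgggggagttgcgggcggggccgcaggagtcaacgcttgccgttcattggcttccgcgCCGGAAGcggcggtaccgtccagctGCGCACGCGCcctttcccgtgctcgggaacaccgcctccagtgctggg
EARS2 (chr7:122067037-122067336, minus strand): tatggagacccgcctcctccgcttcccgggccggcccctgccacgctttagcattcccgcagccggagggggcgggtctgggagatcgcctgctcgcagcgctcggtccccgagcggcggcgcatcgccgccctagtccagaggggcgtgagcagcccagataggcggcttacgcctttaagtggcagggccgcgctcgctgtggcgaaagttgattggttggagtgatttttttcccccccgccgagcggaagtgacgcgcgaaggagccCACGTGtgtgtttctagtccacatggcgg
The FARSB window holds an E-box and an NRF1 site, that of RARS2 an ETS site, that of MARS2 an ETS and an NRF1 site, and that of EARS2 an E-box. Of the 17 members, 15 matched the table; HARS2 and PARS2 did not. E-boxes were found in 2 of these 15 windows (EARS2 and FARSB) and in 7.15% of all 32851 windows. NRF1 sites were found in 3 (FARSB, IARS2 and MARS2), against 4.6% of all windows, and ETS sites in 4 (CARS2, FARSA, MARS2 and RARS2), against 8.86%. The ATF4 element was in 0 of the 15 and in 3.97% of all windows, and the CCAAT box, not capitalised, in 5 (CARS2, EARS2, IARS2, MARS2 and TARS2) and in 37.4%. Where a window printed here holds 2 capitalised motifs they do not overlap, and a match describes the letters only.

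Compared with quiescent B cells, tumors had more RNA for some mitochondrial synthetases and less for others. Of 17 members, 4 were higher, 5 lower and 8 not called by edgeR's quasi-likelihood test at an adjusted p under 0.05. Among all 11633 genes, 68.7% were called, 36.8% higher and 31.9% lower, so the counts of the members lie near or under those of the table as a whole. The median log2 change was 0.13 over the members and 0.08 over all genes. The mitochondrial members split into 3 higher, 5 lower and 7 not called, and of the cytosolic phenylalanine subunits FARSB was higher and FARSA not called. Errors after ± are standard errors (SE) for log2 changes and SD for levels. In this and the following comparisons with control cells both tumors of a mouse were summed, so that 8 tumor mice were set against the control libraries. Levels are printed per library.

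The members lower in tumors were WARS2, MARS2, EARS2, PARS2 and HARS2, which load tryptophan, methionine, glutamate, proline and histidine. MARS2 had a lowest value of 24.1, a median of 34.3 and a highest of 60.2 CPM in MLN tumors and 25.3, 46.0 and 63.9 CPM in spleen tumors, against 71.1, 69.1, 71.7 and 68.8 CPM in quiescent libraries. Every tumor lay below every quiescent library, and the log2 change was -0.80 ± 0.12 (adjusted p = 5.08e-05). Methionine also starts each mitochondrial protein, on the same tRNA that MARS2 loads. EARS2 had 13.3, 19.5 and 24.6 CPM in MLN tumors and 11.4, 22.9 and 28.9 CPM in spleen tumors as lowest, median and highest, against 35.9, 35.0, 37.6 and 30.2 CPM in quiescent libraries. The groups did not overlap either, with a log2 change of -0.76 ± 0.12 (adjusted p = 4.54e-05). HARS2 had 32.8, 42.2 and 46.8 CPM in MLN tumors and 29.4, 37.7 and 49.6 CPM in spleen tumors, against 61.4, 61.3, 58.2 and 51.5 CPM in quiescent libraries. All tumors were lower, with a log2 change of -0.55 ± 0.09 (adjusted p = 0.00012). HARS2 shares 195 bases on the opposite strand with its cytosolic neighbour Hars, and the strand setting of the counting is not given, so reads from that stretch, of the 3.336 kb of its longest coding transcript, may belong to either gene.

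WARS2 had the lowest log2 change of the 17, -0.81 ± 0.12 (adjusted p = 2.17e-05). It had 10.6, 13.3 and 22.6 CPM as lowest, median and highest in MLN tumors and 9.47, 12.5 and 19.5 CPM in spleen tumors, against 23.5, 28.2, 25.9 and 18.5 CPM in quiescent libraries. The MLN tumor of mouse 1614 and the spleen tumor of mouse 1610 reached into the quiescent range, while the summed values of the 8 mice stayed below it. PARS2 had 3.69, 7.80 and 14.3 CPM in MLN tumors and 2.61, 12.6 and 16.2 CPM in spleen tumors, against 11.1, 14.9, 18.5 and 14.7 CPM in quiescent libraries. Its groups overlapped, and its log2 change of -0.67 ± 0.22 (adjusted p = 0.0115) was -0.55 without quiescent library 3 and -0.48 with spleen tumors alone, neither of them called, against -1.39 after quantile normalization. The adjusted p of PARS2 ran from 0.000821 to 0.21 over all alternatives.

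The members higher in tumors were FARS2, RARS2, FARSB and IARS2. FARS2, which loads phenylalanine in mitochondria as a single chain, had 13.1, 19.9 and 25.1 CPM as lowest, median and highest in MLN tumors and 14.1, 18.2 and 30.5 CPM in spleen tumors, against 10.3 to 12.9 CPM in quiescent libraries. All tumors lay above the quiescent libraries, with a log2 change of 0.68 ± 0.17 (adjusted p = 0.00265), which was 0.26 and not called after quantile normalization (adjusted p from 7.38e-05 to 0.246 over all alternatives). Quantile normalization moved the median of all genes from 0.08 to -0.13 in this comparison, and the share of higher genes among those called from 53.6% to 40.0%. RARS2, the arginine enzyme, had 23.3, 30.4 and 49.9 CPM in MLN tumors and a median of 30.4 and a highest of 35.7 CPM in spleen tumors, against 21.3, 24.3, 18.2 and 23.3 CPM in quiescent libraries, a change of 0.53 ± 0.13 (adjusted p = 0.00171). The lowest MLN tumor, that of mouse 1611, reached into the quiescent range, and no other tumor did.

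IARS2, the isoleucine enzyme, had 60.1, 77.0 and 98.1 CPM in MLN tumors and 79.1, 90.3 and 123 CPM in spleen tumors, against 67.2, 68.7, 68.5 and 68.2 CPM in quiescent libraries. All spleen tumors were above the quiescent libraries and the lowest MLN tumor was below them. The log2 change was 0.32 ± 0.08 (adjusted p = 0.0029), but 0.24 and not called with MLN tumors alone. IARS2 shares 2034 bases on the opposite strand with Rab3gap2 and FARS2 115 bases with Lyrm4, so the same limit of strand holds for them, as it does for CARS2 (217 bases with Naxd), NARS2 (284 with C230038L03Rik), VARS2 (130 with Gm20483) and EARS2 (89 with Ubfd1). FARSB, whose values follow below, was higher by 0.39 ± 0.12 on the log2 scale (adjusted p = 0.0077). No overlap between the 8 tumor mice and the quiescent libraries was seen for 2 members above and 4 below, where 23.3% and 24.2% of all genes had none.

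The 8 members not called against quiescent cells had log2 changes of 0.53 (LARS2), 0.32 (YARS2), 0.16 (VARS2), 0.14 (FARSA), 0.13 (TARS2), 0.05 (NARS2), -0.16 (CARS2) and -0.18 (AARS2). LARS2 and YARS2 missed the threshold narrowly, with adjusted p of 0.0588 and 0.0723. Their adjusted p ran from 0.0154 to 0.152 and from 0.0237 to 0.501 over the alternatives, and both were called with DESeq2, with its size factors in edgeR and with immunoglobulin genes left out. LARS2 was also called after quantile normalization (0.36), with MLN tumors alone (0.74) and without mouse 1611, 1612 or 1613, YARS2 without mouse 1613, and CARS2, at -0.26, without mouse 1616. After quantile normalization AARS2, at -0.59 (adjusted p = 0.0254), and FARSA, at 0.28 (adjusted p = 0.0369), were called too. VARS2 was at 0.01 without mouse 1616 and AARS2 at -0.0035 without quiescent library 3.

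**Figure D2:**
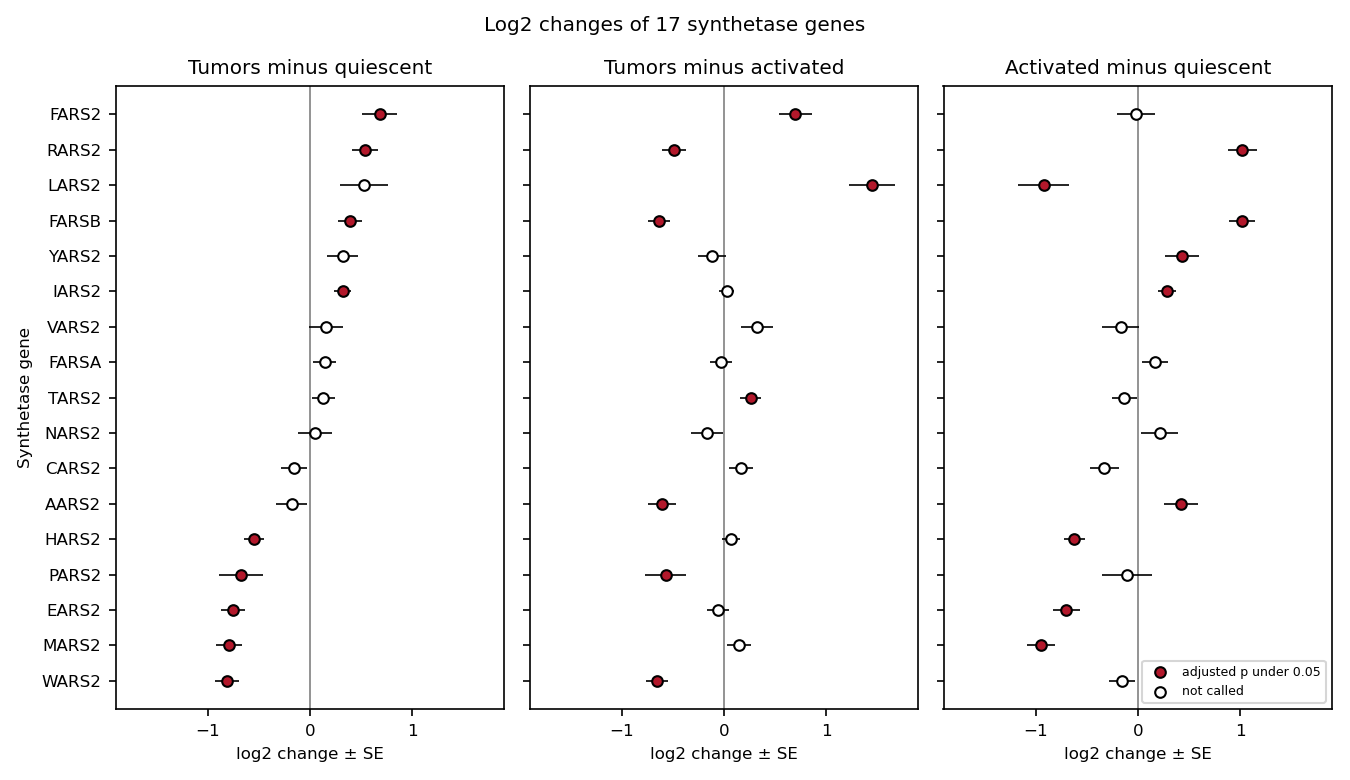
Points are log2 changes of the 17 synthetase genes with their SE as bars, for tumors minus quiescent, tumors minus activated and activated minus quiescent B cells; filled points passed an adjusted p of 0.05 over all genes. WARS2 lies to the left of 0 in both tumor panels, FARS2 to the right in both, and RARS2 and FARSB change side between the first and the second panel.

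Against activated B cells, tumors had less RNA for 5 members and more for 3, and 9 were not called. Among all genes, 63.2% were called, 27% lower and 36.1% higher, and the median log2 change was -0.03 over the members and 0.09 over all genes. Without mouse 1616 the median of all genes was -0.03, and the share of higher genes among those called was 48.4% in place of 57.2%. The tumor values are those used against quiescent cells, so the comparisons share the tumors and are not independent of each other. FARSB and RARS2, higher in tumors than in quiescent cells, were lower in tumors than in activated cells. WARS2 was lower and FARS2 higher in tumors than in either control.

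FARSB had 72.1, 89.4 and 124 CPM as lowest, median and highest in MLN tumors and 68.9, 88.6 and 118 CPM in spleen tumors, against 151, 154, 136, 144 and 128 CPM in activated libraries. All 14 tumors were below the lowest activated library, although the sum for mouse 1616, at 127.4 CPM on the scale of that fit, just reached the 127.2 CPM of activated library 5 there, with a log2 change of -0.63 ± 0.10 (adjusted p = 7.04e-05). RARS2 had medians of 30.4 CPM in MLN and 30.4 CPM in spleen tumors, against 47.3, 47.1, 49.2, 45.0 and 42.8 CPM in activated libraries. Only the MLN tumor of mouse 1616 reached the activated range, and the change was -0.49 ± 0.11 (adjusted p = 0.00146).

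WARS2 was lower in tumors than in activated cells, at a log2 change of -0.66 ± 0.11 (adjusted p = 7.12e-05). Its medians were 13.3 CPM in MLN and 12.5 CPM in spleen tumors, against 21.0 to 24.3 CPM in activated libraries. The MLN tumor of mouse 1614, at 22.6 CPM, lay within that range, while the summed values of the mice stayed below the activated libraries. AARS2, the alanine enzyme, had 11.5, 15.0 and 19.1 CPM as lowest, median and highest in MLN tumors and 10.1, 15.8 and 16.8 CPM in spleen tumors, against 24.4, 19.8, 22.0, 26.3 and 22.2 CPM in activated libraries. All tumors were below the activated libraries, at a change of -0.60 ± 0.14 (adjusted p = 0.00124). PARS2 had 16.8, 13.4, 12.7, 15.7 and 13.4 CPM in activated libraries, and 4 of the 14 tumors lay within that range. Its change was -0.57 ± 0.20 (adjusted p = 0.0219), but -0.51 without activated library 1 and -0.41 with spleen tumors alone, both not called, against -0.92 with MLN tumors alone and -1.27 after quantile normalization, with an adjusted p from 0.000936 to 0.272 over all alternatives.

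The members higher in tumors than in activated cells were LARS2, FARS2 and TARS2. LARS2 was 2.73-fold higher, a log2 change of 1.45 ± 0.23 (adjusted p = 4.6e-05), and every tumor was above every activated library. FARS2 had 15.0, 10.1, 11.4, 11.8 and 12.1 CPM in activated libraries and was higher in tumors by 0.70 ± 0.16 (adjusted p = 0.00122), or by 0.33, not called, after quantile normalization, which moved the median of all genes from 0.09 to -0.14 and the share of higher genes among those called from 57.2% to 38.3%. TARS2, the threonine enzyme, had 62.3, 66.8 and 108 CPM in MLN tumors and 57.1, 72.3 and 75.1 CPM in spleen tumors, against 72.8, 58.0, 55.5, 58.5 and 60.8 CPM in activated libraries. Its change of 0.26 ± 0.11 (adjusted p = 0.0407) was 0.09 and not called without mouse 1616, and the call was also lost without mouse 1610 or 1612, without activated library 2, 3, 4 or 5, with tumors of either site alone and with no filter on low counts, with an adjusted p from 0.0183 to 0.355.

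The 9 members not called against activated cells had log2 changes of 0.32 (VARS2), 0.17 (CARS2), 0.15 (MARS2), 0.07 (HARS2), 0.03 (IARS2), -0.03 (FARSA), -0.06 (EARS2), -0.12 (YARS2) and -0.17 (NARS2). Without mouse 1616 YARS2 was called, at -0.33, and VARS2 was at 0.08. MARS2, EARS2 and HARS2, all lower in tumors than in quiescent cells, thus lay near the activated level, at medians in MLN tumors of 34.3, 19.5 and 42.2 CPM and in spleen tumors of 46.0, 22.9 and 37.7 CPM, against 36.9, 22.4 and 38.9 CPM in activated cells. No overlap between tumor mice and activated libraries was seen for 1 member above (LARS2) and 2 below (AARS2 and WARS2), where 22.3% and 17.6% of all genes had none.

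**Figure D3:**
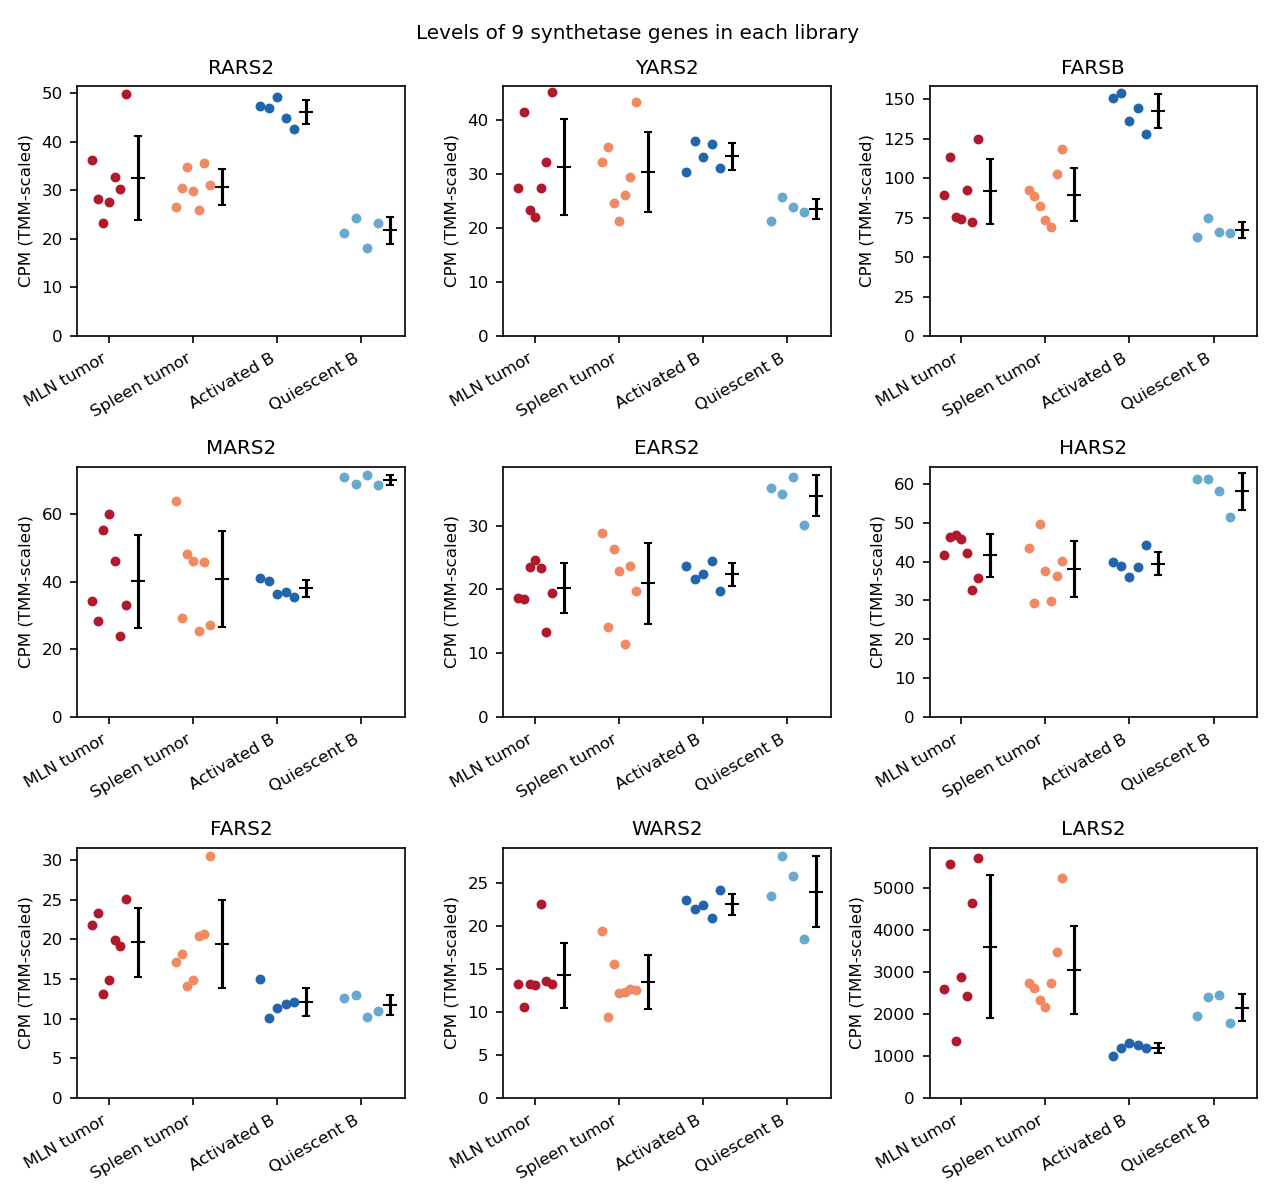
Dots are libraries, with the CPM of 9 synthetase genes on axes that start at 0; the horizontal mark and bar beside each group give its mean and SD (n = 7 MLN tumors, 7 spleen tumors, 5 activated and 4 quiescent libraries). In the top row the mean of activated cells is highest, in the middle row quiescent cells are highest, and in the bottom row FARS2 and LARS2 are highest in tumors while WARS2 is lowest there.

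Between activated and quiescent B cells, 5 members were higher in activated cells, 4 lower and 8 not called. Among all genes, 59.5% were called, 25.4% higher and 34.1% lower, and the median log2 change was -0.10 over the members and -0.15 over all genes. Of the genes called, 42.7% were higher, but 49.96% after quantile normalization, where the median of all genes was -0.04, 49.6% with immunoglobulin genes left out and 49.2% without mouse 1616. FARSB and RARS2 were each 2.03-fold higher in activated cells. FARSB averaged 142 ± 10.7 CPM in activated libraries (n = 5), against 62.9, 74.5, 65.9 and 64.9 CPM in the quiescent ones. Its log2 change was 1.02 ± 0.13 (adjusted p = 4.28e-06). RARS2 averaged 46.3 ± 2.46 CPM in activated and 21.8 ± 2.68 CPM in quiescent libraries, a log2 change of 1.02 ± 0.14 (adjusted p = 1.09e-05). IARS2 had a change of 0.29 ± 0.09 (adjusted p = 0.00997), with 88.0, 93.3, 86.5, 82.0 and 86.0 CPM in activated libraries, all above the quiescent ones.

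YARS2 and AARS2, which load tyrosine and alanine, had smaller rises. YARS2 had 30.4, 36.0, 33.2, 35.5 and 31.2 CPM in activated libraries, against 21.3, 25.8, 23.8 and 22.9 CPM in quiescent ones, a log2 change of 0.44 ± 0.17 (adjusted p = 0.0318). The call of YARS2 was lost with limma-voom and quantile normalization and without mouse 1615, activated library 2, 3 or 4, or quiescent library 1, 3 or 4, at changes between 0.39 and 0.54 over all libraries left out, although its groups did not overlap. AARS2 had 13.5, 16.3, 22.0 and 13.4 CPM in quiescent libraries, so that quiescent library 3 lay within the activated range. Its change of 0.42 ± 0.17 (adjusted p = 0.0378) was lost after quantile normalization and without mouse 1615, activated library 1, 3, 4 or 5, or quiescent library 1, 2 or 4, and ran from 0.34 to 0.60 over the libraries left out. The adjusted p ran from 6.99e-05 to 0.0837 for YARS2 and from 0.00529 to 0.197 for AARS2 over all alternatives. Without both calls the 5 higher become 3, the count found after quantile normalization and without mouse 1615, activated library 3 or 4, or quiescent library 1 or 4. The mouse enters these calls because tumors and controls share 1 fit, with 1 estimate of the spread and a common scaling of the libraries. Without mouse 1615 the change was 0.40 for YARS2 and 0.39 for AARS2, and the median of all genes was -0.19 in place of -0.15.

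MARS2, LARS2, EARS2 and HARS2 were lower in activated cells. MARS2 had 41.2, 40.4, 36.5, 36.9 and 35.7 CPM in activated libraries, 0.519-fold the quiescent level and -0.95 ± 0.14 on the log2 scale (adjusted p = 2.23e-05). LARS2 was 0.528-fold, at -0.92 ± 0.25 (adjusted p = 0.00497). EARS2 had 23.6, 21.6, 22.4, 24.5 and 19.7 CPM in activated libraries and a change of -0.70 ± 0.13 (adjusted p = 0.000222). HARS2 had 39.9, 38.9, 36.1, 38.5 and 44.2 CPM and a change of -0.62 ± 0.10 (adjusted p = 8.81e-05). In none of these 4 genes did an activated library reach the quiescent range. Of a proliferation list, 10 of 10 tested genes were higher in activated than in quiescent cells, where 25.4% of all genes were. The list summed to 1732 to 2247 CPM in activated and 313 to 333 CPM in quiescent libraries. All 10 were also higher in tumors than in quiescent cells, and a link of proliferation to the synthetase changes was not tested. The 8 members not called had log2 changes of 0.21 (NARS2), 0.17 (FARSA), -0.02 (FARS2), -0.10 (PARS2), -0.13 (TARS2), -0.16 (WARS2), -0.17 (VARS2) and -0.33 (CARS2). CARS2, the cysteine enzyme, had 40.5, 42.1, 40.4, 41.6 and 39.6 CPM in activated libraries, all below the 52.9, 50.7, 47.5 and 44.7 CPM of the quiescent ones, at an adjusted p of 0.0558. It was called without mouse 1614, 1615 or 1616, and FARSA without mouse 1616, at 0.27. In all, 4 members were without overlap above and 5 below, where 29.8% and 38.1% of all genes had none.

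Between MLN and spleen tumors none of the 17 members was called by edgeR, and 0% of all 11633 genes were. This fit took the 14 tumors as single libraries, 7 of each site, without a term for the mouse. Paired tumors of 1 mouse were thus treated as independent in it. At an unadjusted p under 0.05 there were 0 members and 511 genes, 4.39% of all. DESeq2 called 20 genes, none of them a member, and a fit blocked on the mouse, over the 6 pairs, called 0 members. The largest differences were those of PARS2 (-0.49 ± 0.37 on the log2 scale, MLN minus spleen), IARS2 (-0.24 ± 0.14), NARS2 (-0.23 ± 0.21) and LARS2 (0.23 ± 0.32), each with an adjusted p of 1. With 1 mouse left out they ran from -0.70 to -0.26 for PARS2, from -0.30 to -0.12 for IARS2, from -0.37 to -0.04 for NARS2 and from 0.08 to 0.35 for LARS2. No member was without overlap between the sites, as was 1 gene of all, 0.0086%. The median log2 difference was 0.05 over the members and -0.03 over all genes.

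Tumors of the same site differed among themselves, and whether by more than the sites differ was not tested. The MLN tumor of mouse 1616 had the highest level of 6 members (FARSB, LARS2, RARS2, TARS2, VARS2 and YARS2), and the spleen tumor of mouse 1614 the lowest of 6 (AARS2, CARS2, EARS2, FARSB, TARS2 and VARS2) and values under the tumor median for 13 of 17. MARS2 was high in tumors with high mature B cell markers. It had 63.9 CPM in the spleen tumor of mouse 1610, 60.2 CPM in the MLN tumor of mouse 1613 and 55.3 CPM in the MLN tumor of mouse 1611, whose marker sums were 20510, 14147 and 16515 CPM. It had 24.1 CPM in the MLN tumor of mouse 1615, 25.3 CPM in the spleen tumor of mouse 1614 and 27.3 CPM in the spleen tumor of mouse 1616, whose marker sums were 2930, 2247 and 795 CPM. Activated cells departed from that order, with MARS2 at 35.7 to 41.2 CPM beside marker sums of 15686 to 17619 CPM. The part of B cell content in the lower MARS2 of tumors was not tested.

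PARS2 was lowest, at 2.61 CPM, in the spleen tumor of mouse 1616, followed by the MLN tumors of mice 1610 (3.69 CPM), 1615 (4.44 CPM) and 1616 (5.85 CPM), with marker sums of 795, 3271, 2930 and 3980 CPM in that order. It was highest, at 16.2 CPM, in the spleen tumor of mouse 1615, with a marker sum of 18680 CPM. LARS2 was highest in the MLN tumors of mice 1616 (5726 CPM) and 1610 (5587 CPM) and the spleen tumor of mouse 1616 (5236 CPM), where immunoglobulin genes took 25.5%, 27.1% and 19.0% of the counts. It was lowest, at 1371 CPM, in the MLN tumor of mouse 1611, where they took 2.05%. The spleen tumor of mouse 1611 went against both, with a marker sum of 308 CPM beside 8.76 CPM of PARS2 and 2630 CPM of LARS2. The spleen tumor of mouse 1615 had the lowest immunoglobulin share of the tumors, 1.08%, beside 3493 CPM of LARS2.

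**Figure D4:**
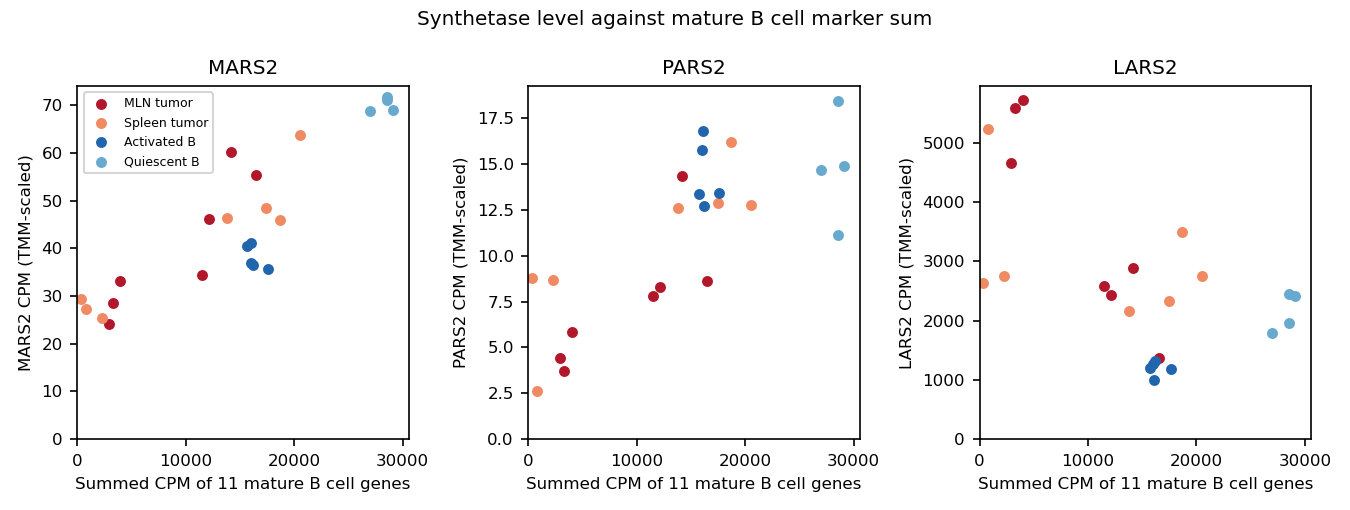
Each dot is a library, with the summed CPM of 11 mature B cell genes on the horizontal axis and the CPM of MARS2, PARS2 or LARS2 on the vertical axis, both from 0; colours give the groups. Tumors with low sums have low MARS2 and mostly low PARS2, the 3 libraries of highest LARS2 lie at low sums, and the activated libraries sit below the tumors of like sums for MARS2 and LARS2.

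The cytosolic phenylalanine enzyme is built from a catalytic subunit, FARSA, and a second subunit, FARSB, in equal parts. FARSA had 76.8, 93.8 and 139 CPM as lowest, median and highest in MLN tumors and 77.7, 101 and 111 CPM in spleen tumors, against 113, 109, 91.8, 103 and 96.5 CPM in activated and 93.7, 86.0, 83.0 and 86.3 CPM in quiescent libraries. FARSA was called in none of the comparisons as fitted here, while FARSB was called in all those with control cells. FARSB shares 250 bases on the opposite strand with Sgpp2, so part of its reads may belong to that neighbour. The products of the scaffold genes AIMP1, AIMP2 and EEF1E1 hold several cytosolic synthetases in a common complex. In the comparisons with control cells these genes had the same signs as FARSB, which does not make FARSB a part of that complex. AIMP2 had 25.2, 34.5 and 54.8 CPM in MLN tumors and 21.4, 37.5 and 55.3 CPM in spleen tumors, against 58.3, 63.7, 56.8, 60.5 and 56.3 CPM in activated and 20.2, 19.6, 18.2 and 18.7 CPM in quiescent libraries. Per library, all tumors lay between the control groups for AIMP2. On the scale of the fit of summed tumors, mouse 1616, at 57.6 CPM, passed the 56.0 CPM of activated library 5.

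In tumors against quiescent cells the 3 scaffold genes were higher, AIMP1 by 0.63 ± 0.09, AIMP2 by 0.92 ± 0.17 and EEF1E1 by 0.77 ± 0.13 on the log2 scale (adjusted p = 2.13e-05, 0.00021 and 0.00012). In tumors against activated cells they were lower, at changes of -0.20 ± 0.08, -0.64 ± 0.15 and -0.44 ± 0.12 (adjusted p = 0.0414, 0.00121 and 0.00397). The call of AIMP1 against activated cells was lost with the size factors of DESeq2, after quantile normalization, with tumors of either site alone, and without any of mice 1610 to 1615, any activated library, or quiescent library 2 or 3, and its change was -0.34 without mouse 1616 (adjusted p from 0.00016 to 0.159 over all alternatives). In activated against quiescent cells they were higher, by 0.82 ± 0.10, 1.56 ± 0.18 and 1.21 ± 0.14 (adjusted p = 2.07e-06, 2.26e-06 and 2.55e-06). These comparisons share their groups, so the signs are not independent of each other.

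**Figure D5:**
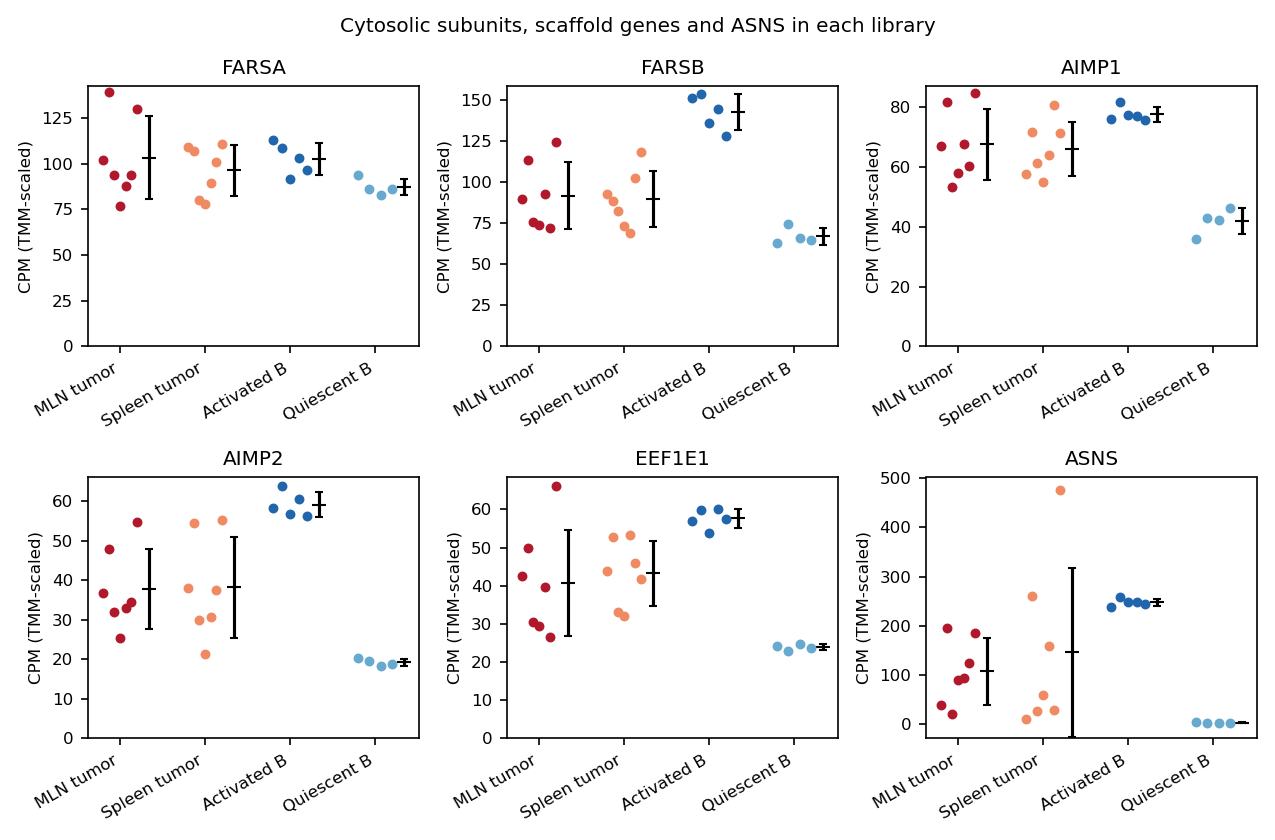
Dots are libraries, with the CPM of the cytosolic subunits FARSA and FARSB, the scaffold genes AIMP1, AIMP2 and EEF1E1, and ASNS; the mark and bar beside each group give mean and SD (n = 7, 7, 5 and 4). By group mean, FARSB and the scaffold genes are highest in activated and lowest in quiescent cells with tumors between them, while single tumors reach the quiescent range for FARSB and pass the activated libraries for AIMP1 and EEF1E1; FARSA differs little, and ASNS is near 0 in quiescent cells.

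ATF4 itself had 251, 312 and 521 CPM as lowest, median and highest in MLN tumors and 232, 255 and 666 CPM in spleen tumors, against 719, 720, 738, 711 and 723 CPM in activated and 239, 247, 257 and 226 CPM in quiescent libraries. It was lower in tumors than in activated cells, at a log2 change of -1.17 ± 0.14 (adjusted p = 2.54e-06), and not called against quiescent cells (0.34 ± 0.15, adjusted p = 0.0574, from 0.000379 to 0.14 over the alternatives, and called with the size factors of DESeq2, with DESeq2, after quantile normalization, with immunoglobulin genes left out, with MLN tumors alone and without mouse 1609, 1612, 1615 or 1616). ASNS, the asparagine synthetase gene and a known ATF4 target, ran from 20.4 to 196 CPM in MLN tumors and from 11.1 to 476 CPM in spleen tumors, against 238 to 259 CPM in activated and 2.24 to 4.52 CPM in quiescent libraries. It was higher in tumors than in quiescent cells (5.22 ± 0.64, adjusted p = 5.4e-06) and lower than in activated cells (-1.16 ± 0.42, adjusted p = 0.024, and -0.71, not called, with spleen tumors alone). Of 28 genes of the ATF4 response, 22 were higher and 0 lower in tumors than in quiescent cells, 1 higher (NUPR1) and 19 lower than in activated cells, and 24 higher and 0 lower in activated than in quiescent cells. The shares called were 78.6%, 71.4% and 85.7%, where 68.7%, 63.2% and 59.5% of all genes were. The medians were 1.63, -1.15 and 2.67 on the log2 scale, where those of all genes were 0.08, 0.09 and -0.15. The largest were PYCR1 (5.38 ± 0.72) in tumors against quiescent cells, TRIB3 (-5.65 ± 0.55) in tumors against activated cells and CHAC1 (7.51 ± 1.07) in activated against quiescent cells. The count of 1 higher than in activated cells became 0 without mouse 1616 or without activated library 3, 4 or 5, became 2 without mouse 1609 or 1610, became 3 without mouse 1615 and became 4 without mouse 1612; the count of 0 lower than in quiescent cells became 1 without mouse 1616.

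The listed mitochondrial translation factors, a mixed set that also holds LRPPRC and enzymes acting on tRNAs, were called in both directions. Of 15, 5 were higher and 4 lower in tumors than in quiescent cells, 0 higher and 6 lower than in activated cells, and 7 higher and 3 lower in activated than in quiescent cells. TSFM, an exchange factor of elongation, was higher in tumors than in quiescent cells by 0.61 ± 0.13 on the log2 scale (adjusted p = 0.000864) and GFM2, a factor of ribosome recycling, lower, at -0.53 ± 0.06 (adjusted p = 2.34e-06). LRPPRC, which stabilises mitochondrial messages, was lower in tumors than in activated cells, at -0.78 ± 0.07 (adjusted p = 2.94e-07). GFM1, a factor of elongation, rose by 1.05 ± 0.12 (adjusted p = 1.11e-06) and MTIF3, a factor of initiation, fell by 0.61 on the log2 scale (adjusted p = 0.000498) in activated against quiescent cells. The 5 higher against quiescent cells became 3 without mouse 1609 or 1615 or without quiescent library 2 or 3, and against activated cells the 6 lower became 11 without mouse 1616 and the 0 higher became 1 without mouse 1611, 1612 or 1615. In all 60% were called against quiescent cells, 40% against activated cells and 66.7% between the controls, where 68.7%, 63.2% and 59.5% of all genes were. The median log2 changes were -0.10, -0.19 and 0.23 in these comparisons, against 0.08, 0.09 and -0.15 over all genes.

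Of 23 genes of tRNA processing and export, 12 were higher and 5 lower in tumors than in quiescent cells, 1 higher and 17 lower than in activated cells, and 15 higher and 2 lower in activated than in quiescent cells. XPOT, the nuclear exporter of tRNA, was higher in tumors than in quiescent cells by 0.88 ± 0.29 on the log2 scale (adjusted p = 0.0137) and in activated than in quiescent cells by 1.75 ± 0.32 (adjusted p = 0.000208). ELAC1, a tRNA 3′ end nuclease, was lower in the same comparisons, at -0.60 ± 0.15 (adjusted p = 0.00219) and -0.83 ± 0.17 (adjusted p = 0.000433). Against activated cells the extremes were POP1, a subunit of RNase P (-1.20 ± 0.23, adjusted p = 0.000305), and RTCB, the tRNA splicing ligase (0.41 ± 0.08, adjusted p = 0.000332). The shares called were 73.9%, 78.3% and 73.9%, where 68.7%, 63.2% and 59.5% of all genes were. The 12 higher against quiescent cells became 7 without quiescent library 3. The median log2 changes were 0.23, -0.46 and 0.50, against 0.08, 0.09 and -0.15 over all genes.

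Of 40 tRNA modification genes, 14 were higher and 8 lower in tumors than in quiescent cells, 7 higher and 19 lower than in activated cells, and 21 higher and 6 lower in activated than in quiescent cells. QTRT1, which inserts queuine in the anticodon, was highest among them in tumors against quiescent cells (1.34 ± 0.27, adjusted p = 0.000502) and against activated cells (0.88 ± 0.24, adjusted p = 0.0048). CTU2, a subunit of the enzyme that adds sulfur to the wobble base, was lowest against quiescent cells (-0.62 ± 0.09, adjusted p = 1.73e-05). ELP4, an Elongator subunit, was lowest against activated cells (-1.06 ± 0.17, adjusted p = 5.11e-05) and highest in activated against quiescent cells (2.26 ± 0.22, adjusted p = 2.96e-07), where TRMT12, a wybutosine enzyme, was lowest (-0.76 ± 0.13, adjusted p = 0.000139). The 7 higher against activated cells became 3 without mouse 1616 or without activated library 3. The shares called were 55%, 65% and 67.5%, where 68.7%, 63.2% and 59.5% of all genes were, so the first was below all genes. The median log2 changes were 0.13, -0.25 and 0.37, against 0.08, 0.09 and -0.15 over all genes.

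Of 20 genes of RNA polymerase III, which transcribes tRNA genes, 5 were higher and 7 lower in tumors than in quiescent cells, 2 higher and 10 lower than in activated cells, and 10 higher and 5 lower in activated than in quiescent cells. MAF1, the repressor of that polymerase, was lower in tumors than in quiescent cells, at a log2 change of -0.71 ± 0.11 (adjusted p = 3.89e-05), and in activated than in quiescent cells, at -1.13 ± 0.12 (adjusted p = 7.11e-07). The subunit POLR3D was highest in tumors against quiescent cells (0.62 ± 0.21, adjusted p = 0.0162). Against activated cells the extremes were GTF3C5 (-0.68 ± 0.11, adjusted p = 4.08e-05) and BRF1 (0.48 ± 0.08, adjusted p = 0.000114), both parts of its initiation factors, and the 10 lower became 16 without mouse 1616. The shares called were 60%, 60% and 75%, below all genes in both comparisons of tumors, and the median log2 changes were -0.10, -0.18 and 0.27. Of 10 cytosolic elongation and termination factors, 9 were higher and 0 lower in tumors than in quiescent cells, 3 higher and 4 lower than in activated cells, and 6 higher and 0 lower in activated than in quiescent cells. EEF1A2, an elongation factor form known from muscle and nerve, averaged 9.14 CPM over tumor mice and was listed at 0 in all activated libraries, so no fold is given. ETF1, the release factor, was lower in tumors than in activated cells, at -0.55 ± 0.09 (adjusted p = 9.29e-05), and highest in activated against quiescent cells, at 1.56 ± 0.12 (adjusted p = 1.95e-08). Of these factors 90%, 70% and 60% were called, where 68.7%, 63.2% and 59.5% of all genes were. Their median log2 changes were 0.86, -0.31 and 0.87.

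Of 5 genes of synthetase relatives and proofreading enzymes, 3 were higher and 1 lower in tumors than in quiescent cells, 0 were called against activated cells, and 2 were higher and 1 lower in activated than in quiescent cells. DTD2, which clears wrongly loaded tRNA, was highest in tumors (1.04 ± 0.23 on the log2 scale, adjusted p = 0.000862) and in activated cells (0.99 ± 0.24, adjusted p = 0.00219) against quiescent cells. PSTK, a kinase on the path to selenocysteine tRNA, was lower in both, at -0.62 ± 0.16 (adjusted p = 0.00279) and -0.67 ± 0.18 (adjusted p = 0.00374). The shares called were 80%, 0% and 60%, where 68.7%, 63.2% and 59.5% of all genes were. The median log2 changes were 0.42, 0.05 and 0.28, and the 0 lower against activated cells became 2 without mouse 1616. Of 8 interferon gamma response genes, 3 were higher and 2 lower in tumors than in quiescent cells, 3 higher and 2 lower than in activated cells, and 1 higher and 2 lower in activated than in quiescent cells. The shares called, 62.5%, 62.5% and 37.5%, were all below those of all genes, and the median log2 changes were 0.03, -0.04 and 0.07.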

How the data were processed

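Gene-level RNA sequencing values of 23 libraries were used, 7 MLN tumors, 7 spleen tumors, 5 activated and 4 quiescent B cell libraries. Per the labels' protocols, total RNA was made into stranded libraries. Trim Galore 0.4.0, the build GRCm39 and DESeq2 are named per the submitters' processing notes; the quantifier, the strand setting and the role of DESeq2 are not stated there. The authors deposited estimated counts under human gene symbols, although the table is named for TPM: the values are not whole and their totals reach 25045814 in a library. Of 61651 entries, 21282 carry values, 17047 are above 0, and merging identical entries left 15881 profiles. A repeated name was represented by its profile of highest mean.

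Values were rounded and tested with edgeR 4.0.16 in R 4.3.3 (quasi-likelihood test, TMM, two-sided, Benjamini-Hochberg over 11633 genes, threshold 0.05). Both tumors of a mouse were summed for the fit with control cells, while the fit between tumor sites took single tumors without a mouse term. SE is the absolute log2 change over the square root of F. Printed CPM are TMM-scaled over the 23 libraries. limma 3.58.1 and DESeq2 1.42.0 served as alternatives, BLAST+ 2.17.0 for shared stretches and transcript lengths came from GENCODE M21. The fit was tested on simulated data. Members and lists were chosen with earlier results of these data known. The planned design expected values for the cytosolic enzymes, KARS, GARS, EPRS and WARS included, and most have none. Values were planned for the largest called changes, those against their compartment's direction and all uncalled members; between tumor sites, where no member was called, only the 4 largest are given. Of pathway lists the largest called change in each direction is named. A member that carries values and a gene of a pathway list are not reported here; the counts of members leave that member out, while it stays in the fit over all genes.

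The pairing of tumors by mouse comes from the series' design text. Deviations of paired tumors from their site means correlated at -0.2, -0.36, 0.41, -0.29, -0.49 and 0.72 in mice 1610, 1611, 1613, 1614, 1615 and 1616.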

Additional observations from a re-analysis of the deposited data

Results flagged for a closer look

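Of 68 sets of values (17 members in 4 groups), 4 had a library far from the rest of its group by Dixon's test at 95%, and chance alone marks about 1 in 20 such sets. FARS2 had 30.5 CPM in the spleen tumor of mouse 1616, where the other spleen tumors had 14.1 to 20.7 CPM. NARS2 had 34.9 CPM in the spleen tumor of mouse 1614, where the others had 16.7 to 23.2 CPM. VARS2 had 86.4 CPM in the MLN tumor of mouse 1616, where the others had 36.1 to 46.6 CPM. WARS2 had 22.6 CPM in the MLN tumor of mouse 1614, where the others had 10.6 to 13.7 CPM, and its fall in tumors was called with or without that mouse.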

How the results depend on the processing

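The counts of members called stayed within 1.5 times of those reported, except that the 5 higher in activated than in quiescent cells became 3 after quantile normalization and ran from 3 to 6 with 1 library left out. The alternatives were other size factors, DESeq2, limma-voom, quantile normalization, no filter, immunoglobulin genes left out, repeated names summed, tumors of 1 site, and each mouse or control library left out. Among called changes, each kept its sign under these alternatives, and the calls lost are named beside their values. Activated and quiescent libraries 1 to 4 share only a number (correlations of their deviations from -0.017 to 0.0031). A fit blocked on that number also left out all tumors and activated library 5. It gave 8426 genes called in place of 6922, and CARS2 (-0.22, adjusted p = 0.0152) and FARSA (0.28, adjusted p = 0.000618) were then called. Without mouse 1616 alone, and with no block, 7674 genes were called. The part of the block in these calls was not tested. The replicate block on the mouse between tumor sites changed no call. Uncalled changes that turned sign were, with quantile normalization, NARS2 against quiescent cells (-0.24), FARSA against activated cells (0.051) and LARS2 between MLN and spleen (-0.10). With MLN tumors only they were CARS2 (0.0022) and NARS2 (-0.011) against quiescent and FARSA (0.0088) and IARS2 (-0.11) against activated cells, and with spleen tumors only HARS2 against activated cells (-0.017). With no filter they were IARS2 against activated cells (-0.025) and FARS2 in activated against quiescent cells (0.042). FARS2 in that comparison was 0.036 with other size factors or DESeq2, 0.085 without immunoglobulin genes and 0.069 with the replicate block, where PARS2 was 0.028 (0.0012 without immunoglobulin genes). Leaving out 1 library at a time gave ranges across 0 for NARS2 against quiescent cells (-0.025 to 0.13), for CARS2 (-0.035 to 0.21), FARSA (-0.18 to 0.018), HARS2 (-0.015 to 0.14) and IARS2 (-0.090 to 0.068) against activated cells, and for FARS2 (-0.096 to 0.086) and PARS2 (-0.22 to 0.020) in activated against quiescent cells. The cause of these turns was not tested.

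Counts of pathway lists moved as follows. Tumors against quiescent cells, quantile normalization: synthetase relatives 1 higher, tRNA processing 3 higher and 8 lower, modification 14 lower, mitochondrial factors 3 higher and 8 lower, ATF4 response 2 lower. With limma-voom, processing had 7 and mitochondrial factors 3 higher; with spleen tumors only, synthetase relatives had 0, modification 4 and ATF4 response 1 lower, and with MLN tumors only ATF4 response had 1 lower. Tumors against activated cells, quantile normalization: synthetase relatives 2 lower, modification 3 higher, mitochondrial factors 12 lower, ATF4 response 0 higher. Modification had 4 higher with no filter and, with spleen tumors only, 4 higher and 11 lower, where elongation factors had 2 lower and ATF4 response 0 higher. ATF4 response had 3 higher with DESeq2, 0 with limma-voom and 3 with MLN tumors only, and mitochondrial factors had 1 higher with DESeq2 or its size factors. Activated against quiescent cells, synthetase relatives had 0 lower with quantile normalization and modification 3 lower without immunoglobulin genes. Leaving out 1 library gave, against activated cells, ATF4 response 0 to 4 higher, polymerase III 10 to 16 lower, mitochondrial factors 0 to 1 higher and 6 to 11 lower, synthetase relatives 0 to 2 lower and modification 3 to 7 higher. Against quiescent cells it gave ATF4 response 0 to 1 lower, mitochondrial factors 3 to 5 higher and processing 7 to 13 higher.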
